A study of Mus musculus with 8 samples.

Results

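AP-1 is a family of dimeric transcription factors built from Fos proteins (Fos, Fosb, Fosl1, Fosl2) and Jun proteins (Jun, Junb, Jund), with the related factors Atf3, Batf3 and Maff. The genes were chosen by their symbols in the probe set annotation. Of the 10 genes, 9 had a probe set annotated with that symbol alone, among 22180 genes with such a probe set. Fosl1 shares its only probe set with Ccdc85b, so its level was not used here. The cells were melanocyte cultures from mouse pups 1 to 5 days old, labelled female, grown for 22 days, and RNA was taken 6 h after treatment. All cells carried floxed Atg7 alleles (Atg7 f/f). The WT groups carried no Cre and kept an active autophagy pathway. The KO groups also carried Tyr::Cre, the Cre recombinase under the promoter of the pigment enzyme tyrosinase, and were autophagy deficient; cells that do not use this promoter keep their floxed alleles. Each genotype was sham treated or given UVA-1 (the longer wavelengths of ultraviolet A) at 20 J/cm², so there were 4 groups of 2 arrays, named here by genotype and treatment. The duplicates are numbered 1 and 2 in every group, and the submitters call them biological duplicates. The labels do not say which animals or cultures they came from. A genotype and a number together are called a culture here, although no label states that both of its arrays share a dish. The subject of the study, by its title, is the secretion of senescence-associated factors and lipid mediators by melanocytes without autophagy.

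AP-1 dimers bind the DNA element TGACTCA, called the TRE, and dimers with ATF or CREB proteins favour the longer element TGACGTCA, called the CRE. Most AP-1 genes are immediate early genes: MAP kinases and other signals switch them on within minutes of growth factors or ultraviolet light, and several of them fall back within hours. Atf3 is induced later and longer by many stresses, among them through Atf4 in the integrated stress response, and in skin cells AP-1 drives collagenases and other matrix proteases after ultraviolet light. Samples taken only hours after exposure cannot show whether such a gene rose earlier.

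The sequences just before the transcription starts of 4 members are shown because these genes behaved differently here: Atf3 and Fosb were higher after UVA, while Jun and Fos differed mainly between cultures. Each line gives the 250 bases before the RefSeq start in GRCm38.p6, 5′ to 3′ on the gene's strand, with matches to the AP-1, CRE and C/EBP-ATF elements spelled out after the sequences in capitals.
Atf3, chr1:191183334-191183583, minus strand: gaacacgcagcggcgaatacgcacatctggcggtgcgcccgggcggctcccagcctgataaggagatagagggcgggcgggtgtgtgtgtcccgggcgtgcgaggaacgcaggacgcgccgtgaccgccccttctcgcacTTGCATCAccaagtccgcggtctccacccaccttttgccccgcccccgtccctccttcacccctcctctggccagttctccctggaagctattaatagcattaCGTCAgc
Fosb, chr7:19310046-19310295, minus strand: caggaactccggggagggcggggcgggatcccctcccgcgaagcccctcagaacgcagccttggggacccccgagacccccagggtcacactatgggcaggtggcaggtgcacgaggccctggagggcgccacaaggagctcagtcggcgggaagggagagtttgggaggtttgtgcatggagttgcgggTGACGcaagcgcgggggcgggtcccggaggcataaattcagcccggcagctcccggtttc
Fos, chr12:85473640-85473889, plus strand: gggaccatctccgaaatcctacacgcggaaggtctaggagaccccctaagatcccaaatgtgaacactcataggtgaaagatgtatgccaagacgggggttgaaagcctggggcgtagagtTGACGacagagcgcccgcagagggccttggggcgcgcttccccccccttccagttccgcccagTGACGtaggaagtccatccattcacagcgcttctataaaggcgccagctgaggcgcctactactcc
Jun, chr4:95052223-95052472, minus strand: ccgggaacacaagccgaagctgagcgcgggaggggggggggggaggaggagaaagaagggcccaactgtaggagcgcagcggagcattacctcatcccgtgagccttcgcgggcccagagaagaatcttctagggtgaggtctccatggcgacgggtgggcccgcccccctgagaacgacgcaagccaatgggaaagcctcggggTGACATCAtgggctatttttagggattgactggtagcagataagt
The Atf3 stretch holds TTGCATCA at positions -110 to -103, which is TGATGCAA on the other strand, the form bound by C/EBP-ATF dimers such as those of Atf4; 0.791% of 32851 windows of this length held it. It also holds the shorter CRE core TGACG, on the other strand at -7 to -3. The Fosb stretch has that core at -60 to -56, and the Fos stretch at -129 to -125 and -66 to -62. The Jun stretch has TGACATCA at -45 to -38, a variant of the AP-1 element, which 2.93% of all windows held. RefSeq gave 11 windows for the 9 measured members, because Maff has 3 starts. TGACG, which also makes up part of TGACGTCA, lay in 6 of the 11 windows, from 5 members, against 17.8% of all windows. TGACGTCA lay in 1, before a start of Maff, against 1.55% of all windows. TGACTCA lay in none of these windows, against 4.46%, and the CArG box of serum response factor in none, against 1.47%. The TATA box (TATAAA), left in lower case, lay before Fos alone, at -33 to -28, against 12.4% of all windows. Both strands were searched, within these 250 bases only. An element further upstream or after the start would not be seen, so its absence here does not show that a gene lacks it. These matches describe letters only; binding was not measured.

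Marker levels of cell types differed between cultures, and Jun, Junb, Fosl2 and Fos, 4 of the 9 members, differed in the order of the markers. The share of all genes in that order was not counted. By number alone, all arrays of number 2 lay below those of number 1 in 15.5% of all genes and above in 16.6%. The main axis of variation over all genes, with 77.7% of the variance, separated the numbers. The summed intensity of 12 fibroblast markers, such as Col1a1 and Dcn, was 60130 to 63576 in the 4 arrays of number 1, 31195 to 33142 in KO of number 2 and 15089 to 16083 in WT of number 2. The 12 melanocyte markers, such as Tyr and Mitf, summed to 58535 to 62541 in number 1, 91206 to 92403 in KO of number 2 and 105784 to 107963 in WT of number 2. By mean level the 12 melanocyte markers lay at percentile 76.3 or higher among all genes (median 96.6), and the fibroblast markers at 26 or higher (median 94.6). Array intensities here are never 0, so no marker could be listed at 0; the mast cell markers had a median percentile of 10.2. Markers of keratinocytes (9 of 10 measured), myeloid cells (8), mast cells (6), endothelial cells (7) and Schwann cells (6 of 8) summed to at most 1907, 2714, 163, 1763 and 8521. With UVA the median fibroblast marker differed by 0.03 and -0.10 in the WT cultures and by -0.08 and -0.09 in the KO cultures. Among single markers the melanocyte receptor Ednrb was 0.50 higher, and Mc1r was lower (-0.30), as was Ngfr of the Schwann cell list (-0.52; limma adjusted p = 0.0347, 0.0347 and 0.0222 with each culture as a block, and 0.846, 0.812 and 0.724 with number as the block). Without a block, or without any 1 culture, no gene passed. In bulk RNA, fewer cells of a type and less RNA per cell cannot be told apart. The level of Atg7, the deleted gene, was 9.70 to 9.97 in the 4 WT arrays and 9.22 to 9.70 in the 4 KO arrays (log2 intensity), and its averaged difference of -0.39 did not pass (limma adjusted p = 1, or 0.297 when number was a block). Which exons its probes cover was not given in the sources used here. Array medians were 110 to 115 intensity units. Precision is limited by having 2 arrays per group.

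**Figure D1:**
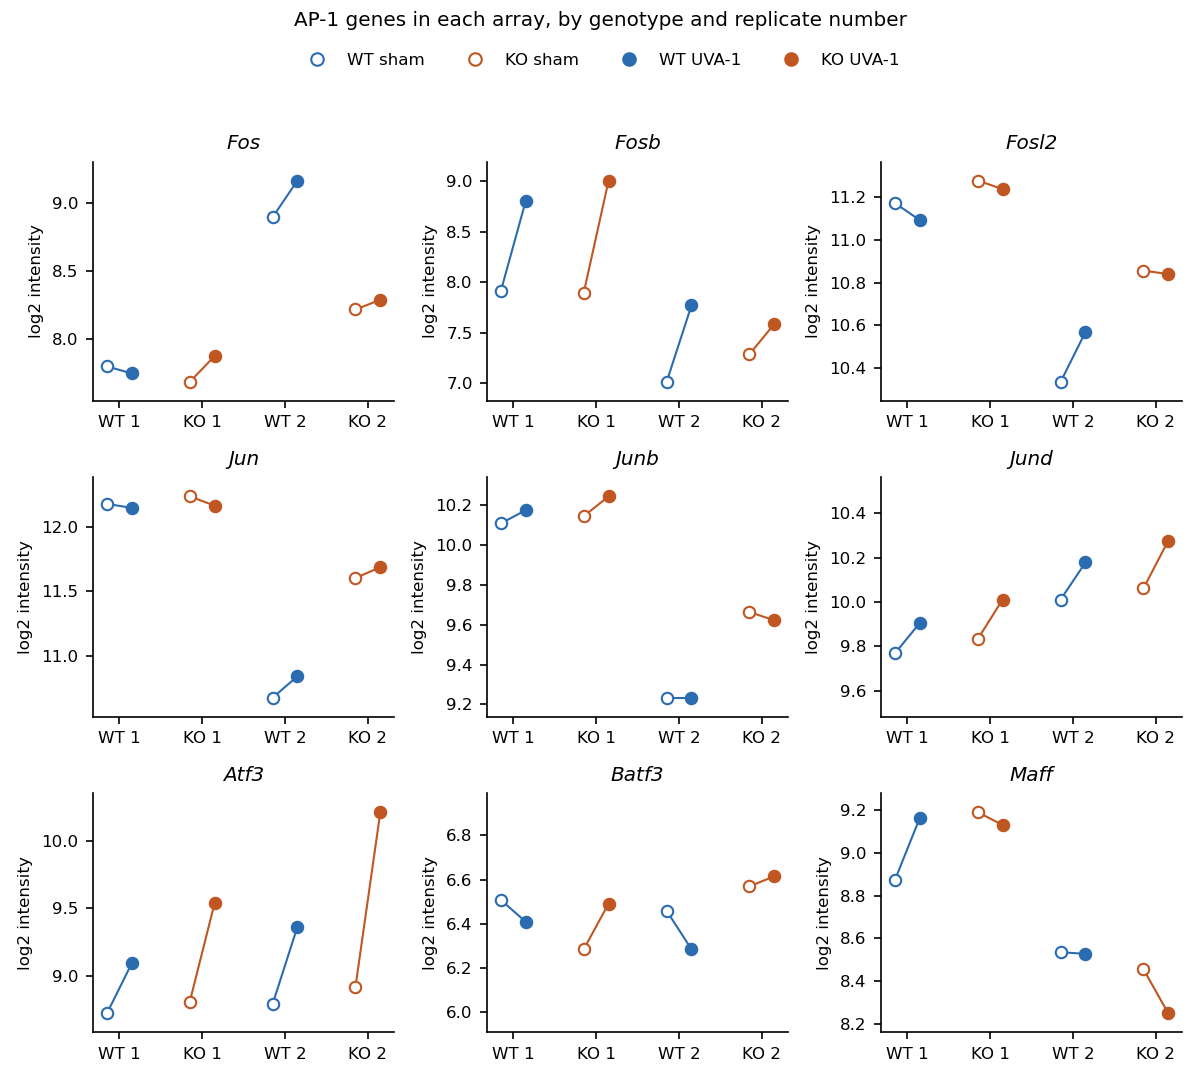
Level of each of the 9 measured AP-1 genes (log2 intensity, own vertical scale in each panel) in the 8 arrays, grouped as WT and KO of number 1 and number 2; open circles are sham, filled circles UVA-1, and a line joins the arrays of a culture. Atf3 has its 4 sham arrays between 8.72 and 8.92 and its 4 UVA arrays above them, whereas Jun is at 12.15 to 12.24 in number 1 and down to 10.68 in WT of number 2.

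The comparison of UVA with sham asks which AP-1 genes stood above their sham level 6 h after exposure. No earlier time was sampled. Atf3 and Fosb were higher by 1.67-fold and 1.70-fold averaged over the genotypes, in all 4 cultures. Both passed in 1 of 3 fits run: the fit without a block, which is the main one, called neither, and the fit with each culture as a block called both. Their averaged differences ranked at place 7 and 6 from the top of 22180 genes. Jund was 1.13-fold higher, also in all 4 cultures, without passing the test. The remaining members, among them Fos, Jun and Junb, stood at 0.996 to 1.09 of their sham level on average. The culture block was first taken up in earlier work on these data after they had been seen. That fit (limma, each culture a block) called 2 of the 9 members, against 97 of all genes (0.437%), of which 53 (0.239%) were higher after UVA. Without a block limma called 0 members and 0 genes (0%; 1 member and 401 genes at an unadjusted p under 0.05). When number was the block it called 0 members and 3 genes (0.0135%; 3 members and 1451 genes unadjusted). Within a genotype, 0 members were called in any fit: in WT the fits called 0, 1 and 12 genes (0%, 0.00451% and 0.0541%) without a block, by number and by culture, and in KO 0, 2 and 2 (0%, 0.00902% and 0.00902%), all of them higher after UVA. Leaving out any culture also ended both calls: the culture-block fit then called 0 genes, with 1580 to 2064 at an unadjusted p under 0.05.

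Atf3 is a stress-induced factor that forms dimers with Jun proteins and can also repress its targets. It read 422 after sham and 546 after UVA in WT of number 1 (intensity). WT of number 2 read 443 and 659. In KO Atf3 read 448 and 744 in number 1 and 484 and 1187 in number 2. All 4 UVA arrays lay above all 4 sham arrays, and Atf3 was the only member of which this held (1 of 9, against 1.23% of all genes). The sham arrays lay close together in all 4 cultures. The fibroblast markers differed between cultures, and their part in the Atf3 levels after sham or UVA was not tested. In log2 units (mean ± SD, n = 2) the WT groups stood at 8.76 ± 0.05 after sham and 9.23 ± 0.19 after UVA. The KO groups stood at 8.86 ± 0.08 and 9.88 ± 0.48. The averaged difference was 0.74 log2 units, with a 95% confidence interval of 0.32 to 1.16 without a block and 0.53 to 0.95 with the culture block (SE 0.09, limma adjusted p = 0.0233 with the culture block; 1 without a block and 0.301 with number as the block). The highest of the UVA arrays was KO of number 2, at 2.45-fold its sham level. Without the arrays of that culture the difference was 0.60 (adjusted p = 0.539).

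In WT alone Atf3 was 1.39-fold higher after UVA, and in KO 2.02-fold (log2 differences 0.47 and 1.01). The KO difference ranked at place 4 of 22180 genes and the WT difference at place 61. Neither passed within its genotype (limma adjusted p = 0.356 and 0.117 with the culture block). The differences were 0.37 and 0.57 in the WT cultures and 0.73 and 1.29 in the KO cultures, so both KO values lay above both WT values. For how many of all genes this order holds was not counted. The interaction, the UVA effect in KO minus that in WT, was 0.54, with a 95% confidence interval of -0.30 to 1.38 without a block, which includes 0, and 0.12 to 0.96 with the culture block. Leaving out the UVA array of KO number 2 gave 0.20, leaving out both arrays of that culture 0.26, and leaving out the UVA array of KO number 1 gave 0.88. It did not pass over all genes (adjusted p = 1; 0 genes called with any block, 294 at an unadjusted p under 0.05 without one). The genotypes were close after sham, at 0.09 in number 1 and 0.13 in number 2 (KO minus WT, log2). After UVA they were apart by 0.45 and 0.85, or 1.57-fold on average, which did not pass either (limma adjusted p = 1; 0.957 with number as the block).

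Fosb, a Fos protein with a long-lived short splice form, read 241 after sham and 447 after UVA in WT of number 1 (intensity). WT of number 2 read 129 and 218. KO of number 1 read 238 and 514, and KO of number 2 read 156 and 192. The difference was thus positive in each culture and smallest in KO of number 2, at 1.23-fold against 1.69-fold to 2.16-fold in the other 3. UVA and sham arrays overlapped across numbers, because number 1 was 1.53-fold to 2.68-fold above number 2 throughout. The averaged difference was 0.76 log2 units, with a 95% confidence interval of -0.28 to 1.81 without a block and 0.49 to 1.04 with the culture block (SE 0.12, limma adjusted p = 0.04998 with the culture block, just under the threshold of 0.05; 1 without a block and 0.470 with number as the block). Without KO of number 1 it was 0.56, and without KO of number 2 it was 0.97 (adjusted p = 0.527 and 0.539). It was 1.77-fold in WT and 1.63-fold in KO, and the interaction was -0.12 (95% confidence interval -2.21 to 1.97 without a block and -0.67 to 0.44 with the culture block; limma adjusted p = 1). The probe set does not separate the splice forms of Fosb in the table used.

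Jund is the Jun protein that many resting cells make steadily and that restrains growth. It read 872 after sham and 959 after UVA in WT of number 1 (intensity). WT of number 2 read 1032 and 1159. In KO Jund read 912 and 1032 in number 1 and 1069 and 1241 in number 2. The differences were small and alike, 0.14 to 0.22 log2 units in the 4 cultures. The averaged difference was 0.17 (SE 0.05), and it did not pass (limma adjusted p = 0.182 with the culture block). A second and dimmer Jund probe set, at 167 to 207, moved by -0.09 and 0.31 in the WT cultures and by 0.12 and -0.01 in the KO cultures, so it did not repeat the pattern. Jund, Fosb and Atf3 were the 3 members of 9 that were higher after UVA in 4 of 4 cultures, against 10.6% of all genes. No member was lower in 4 of 4 cultures (9.08% of all genes were).

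**Figure D2:**
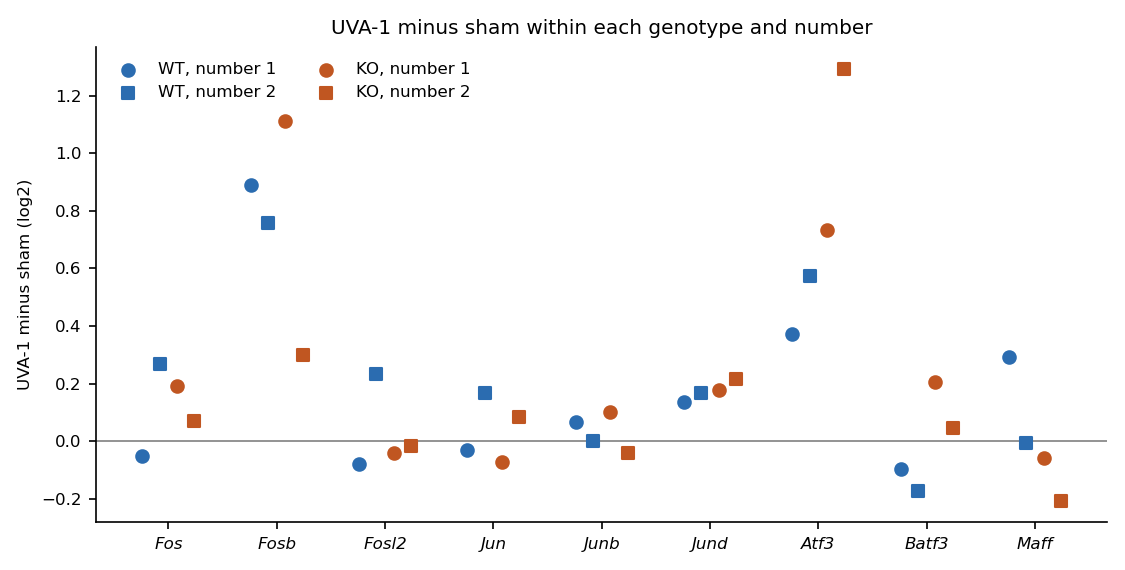
UVA-1 minus sham (log2) for each AP-1 gene in WT (blue) and KO (orange) of number 1 (circles) and number 2 (squares). Atf3, Fosb and Jund are above 0 in all 4 cultures, with Atf3 reaching 1.29 in KO of number 2, while Fos, Fosl2, Jun, Junb, Batf3 and Maff fall on both sides of 0 or touch it.

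Fos, the archetypal immediate early gene, moved by -0.05 and 0.27 in the WT cultures and by 0.19 and 0.07 in the KO cultures after UVA (log2). The averaged difference was 0.12, with a 95% confidence interval of -0.85 to 1.09 without a block (up to 2.13-fold), -0.28 to 0.52 with number as the block and -0.06 to 0.29 with the culture block (limma adjusted p = 1, 0.947 and 0.601). Jun, the main partner of the Fos proteins, moved by -0.03, 0.17, -0.07 and 0.09 in WT of number 1 and 2 and KO of number 1 and 2. Its averaged difference was 0.04, with an interval of -1.04 to 1.11 without a block and -0.07 to 0.15 with the culture block. Junb, which often damps Jun, averaged 0.03 (intervals -0.74 to 0.81 and -0.09 to 0.15), and Fosl2, which is longer-lived than Fos, averaged 0.02 (intervals -0.57 to 0.62 and -0.10 to 0.15). Maff, a small Maf protein without an activation domain of its own, differed by 0.29 in WT of number 1 and by -0.01 to -0.21 in the other cultures. Batf3, a factor known from dendritic and T cells, was dim here, at 78 to 98 intensity units, and differed by -0.17 to 0.21.

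In Jun, Junb, Fosl2, Fos, Maff and, narrowly, Jund the smallest difference between same-group arrays of the numbers exceeded the largest UVA difference of any culture. In Atf3, Fosb and Batf3 it did not. The share of all genes for which this held was not counted. Sham and UVA arrays of a culture correlated at 0.996 to 0.997, and the duplicates of a group at 0.962 to 0.978. Jun read 4536 to 4828 in the 4 arrays of number 1, 3112 and 3301 in KO of number 2, and 1637 and 1837 in WT of number 2 (intensity). The arrays of number 1 were therefore 1.39-fold to 2.83-fold above their counterparts of number 2. This is the order of the fibroblast marker sums given above. Fos ran the other way, at 206 to 235 in number 1, 298 and 313 in KO of number 2, and 477 and 575 in WT of number 2, which is the order of the melanocyte marker sums. Its arrays of number 2 were 1.33-fold to 2.67-fold above those of number 1. Junb read 1104 to 1213 in number 1 and 602 to 811 in number 2, and Fosl2 2183 to 2482 and 1292 to 1854. Maff read 469 to 585 in number 1 and 304 to 371 in number 2. In 5 of the 9 members, Fosl2, Jun, Junb, Maff and Fosb, all arrays of number 2 lay below all arrays of number 1 (15.5% of all genes), and in 1, Fos, they lay above (16.6%).

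**Figure D3:**
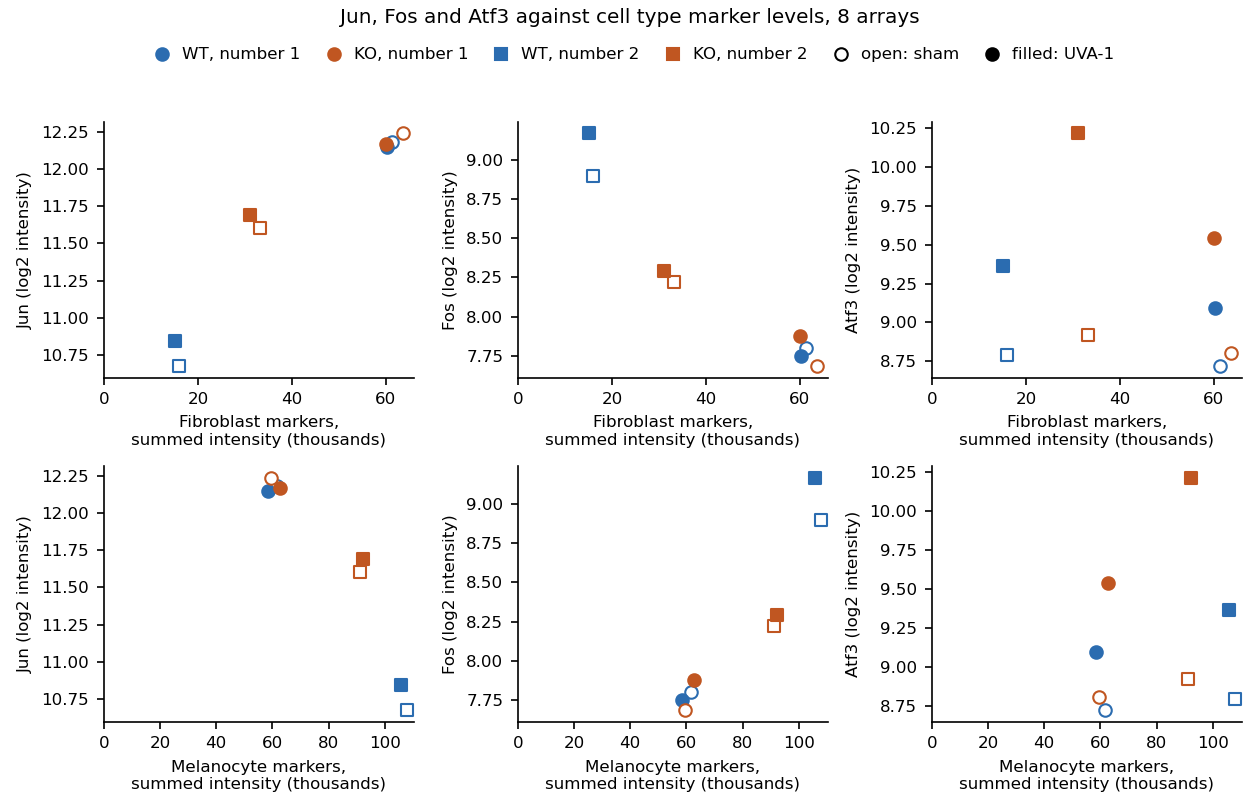
Level of Jun, Fos and Atf3 (log2 intensity) against the summed intensity of 12 fibroblast markers (top row) and of 12 melanocyte markers (bottom row) for the 8 arrays. Jun is highest where fibroblast markers sum to 60130 or more and lowest where they sum to 15089 to 16083; Fos has the reverse order, and the sham arrays of Atf3 stay between 8.72 and 8.92 throughout.

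The comparison of KO with WT asks whether loss of Atg7 shifts the AP-1 genes. No member passed, averaged over treatments, after sham or after UVA. Without a block limma called 0 genes in each (0%; 0, 0 and 1 members and 517, 446 and 352 genes at an unadjusted p under 0.05). When number was the block it called 7 genes averaged over treatments (0.0316%), none of them an AP-1 gene, and 0 after sham and after UVA (1230 and 927 genes unadjusted). The difference was positive in both numbers and both treatments for Fosl2, Jun, Junb, Jund and Atf3 (5 of 9, against 7.65% of all genes), and negative in all 4 for no member (7.78%). No member had all 4 KO arrays above (0.866% of all genes) or below (0.942%) all 4 WT arrays. Both arrays of a culture may share their source, so the 4 differences of a gene are not independent. The genotype fits averaged over treatments count these arrays as separate samples, so their SEs and p-values may be too small.

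Jun was 1.38-fold higher in KO on average (log2 difference 0.46, SE 0.17, limma adjusted p = 0.546 with number as the block). In number 1 the difference was 0.06 after sham and 0.02 after UVA, and in number 2 it was 0.93 and 0.85. Junb had 0.04 and 0.07 in number 1 and 0.43 and 0.39 in number 2. Fosl2 had 0.11 and 0.15 in number 1 and 0.52 and 0.27 in number 2. Fos differed the other way in number 2, by -0.68 after sham and -0.88 after UVA, and by -0.11 and 0.13 in number 1. The median fibroblast marker differed by -0.02 between KO and WT in number 1 and by 1.11 in number 2, where 11 of 12 markers were higher in KO, and the median melanocyte marker by 0.04 and -0.34. The median Schwann cell marker differed by 0.47 in number 1 and 0.07 in number 2, with Ngfr 1.20 and 1.18 higher in KO of number 1 after sham and UVA. The myeloid markers summed to 2714 and 2473 in KO of number 2, against 1440 and 1361 in WT of number 2. Their median differed by only 0.03 in number 2, with 5 of 8 markers higher in KO. Lyz2 alone differed there by 1.62 after sham and 1.78 after UVA (KO minus WT). The part of these marker levels in the AP-1 differences was not tested. Fosb, Batf3 and Maff had averaged differences of 0.07, 0.08 and -0.02 with mixed signs between cultures.

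**Figure D4:**
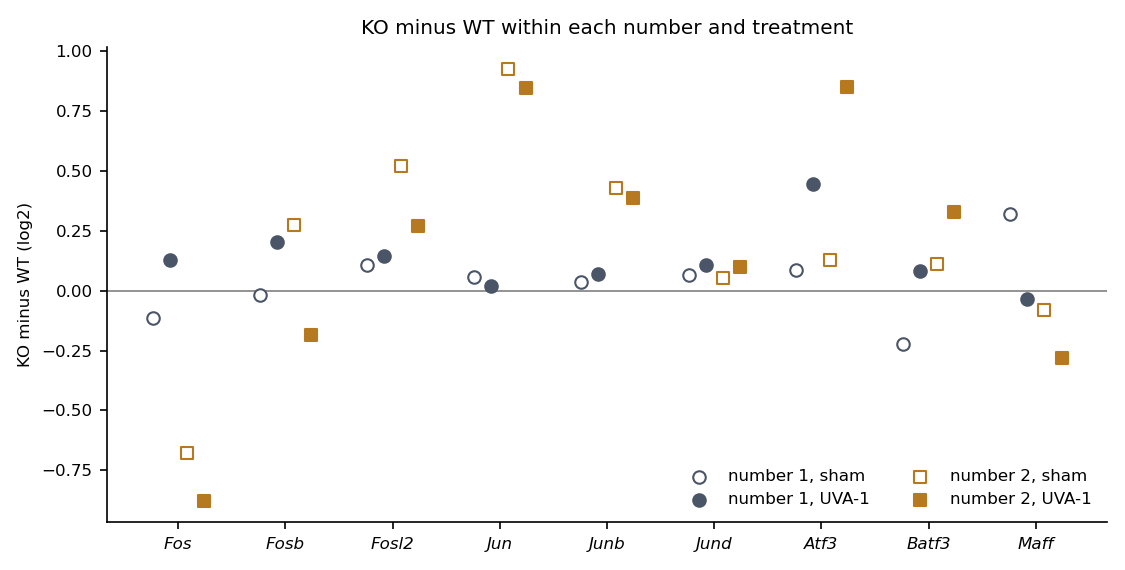
KO minus WT (log2) for each AP-1 gene in number 1 (grey circles) and number 2 (yellow squares), after sham (open) and UVA-1 (filled). In number 1 Jun, Junb, Fosl2 and Jund lie between 0.02 and 0.15, in number 2 Jun reaches 0.93 and Fos -0.88, and Atf3 is separated mainly in the UVA-1 arrays.

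In the list of integrated stress response genes around Atf3, 3 of 10 measured members passed for UVA, all higher, in the culture-block fit alone, which called 0.437% of all genes (0.239% higher). The averaged difference was positive in 8 of the 10, against 51.0% of all genes, with a median of 0.22 log2 units against 0.0023. Slc7a11, the cystine importer, was 1.40 higher (SE 0.14, limma adjusted p = 0.00788), with 1.09 and 1.95 in the WT cultures and 0.98 and 1.58 in the KO cultures. Gadd45b, a regulator of MAP kinase signalling, was 0.43 higher (adjusted p = 0.0485). Ppp1r15a, which restores translation by dephosphorylation of eIF2, was 0.43 higher (adjusted p = 0.0496), and is named here after its values were seen. Without a block or with number as the block no member of this list passed. Chac1, a glutathione-degrading enzyme, and Asns each averaged -0.02, and Atf4 itself averaged 0.14. Between genotypes Chac1 averaged 0.43 and Slc7a11 0.38, without passing. For KO against WT 9 of the 10 had a positive difference (median 0.11), against 45.8% of all genes, and none passed.

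Genes known as AP-1 targets had UVA differences of both signs. Of 27 measured of 30, 11 had a positive averaged UVA difference, against 51.0% of all genes, with a median of -0.06. With the culture block 1 passed in each direction (0.437% of all genes called), and with the other fits none. Hmox1, the heme-degrading enzyme that NRF2 also controls, was 0.44 higher (SE 0.04, limma adjusted p = 0.00649, and 0.600 with number as the block). Ccl2, a chemokine for monocytes, was lower (-0.43, SE 0.04, limma adjusted p = 0.00727, and 0.868 with number as the block), and is named after its values were seen. Fst, an activin antagonist, averaged -0.64 without passing (adjusted p = 0.0709). Between genotypes 23 of the 27 had a positive difference (median 0.30), against 45.8% of all genes. Without a block none passed, and with number as the block 1 did (0.0316% of all genes called): the collagenase Mmp13, a textbook target of AP-1, was 1.04 higher in KO (SE 0.09, limma adjusted p = 0.0366, and 1 without a block), by 1.01 and 0.76 in number 1 and 1.10 and 1.29 in number 2. The list median was 0.01 in number 1 and 0.49 in number 2, beside the fibroblast medians of -0.02 and 1.11; the part of the marker levels was not tested. Mmp3, a stromelysin, had 0.42 and 0.12 in number 1 and 1.58 and 1.75 in number 2.

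The upstream and partner lists held no gene that passed in these comparisons, with any block run. Of 29 measured other bZIP factors, 21 had a positive UVA difference (median 0.04); the largest were Cebpa (0.30) and Bach1 (0.28, limma adjusted p = 0.0714 with the culture block), a repressor that small Maf proteins bring to DNA. Of 15 genes of MAP kinase feedback, 9 were positive (median 0.04), with Dusp10, a phosphatase of p38 and JNK, at 0.36 and Spry1, a brake on receptor signalling, at -0.42. Of 27 measured genes of the MAP kinase cascade, 14 were positive (median 0.01), with Map2k6 at -0.34 and Mapk13 at -0.27. Of 14 measured regulators of Fos and Jun transcription or turnover, 8 were positive (median 0.0031), with Mef2c at -0.23 and Elk3 at -0.20. Between genotypes the largest differences in these lists were Dusp5 (0.57), Mapk13 (0.54) and Cebpa (0.47), each of them larger in number 2. Those of Cebpb (0.27), Map3k8 (0.23), Mef2a (0.22), Dusp14 (0.21) and Mef2c (0.18) were smaller, and none passed.

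**Figure D5:**
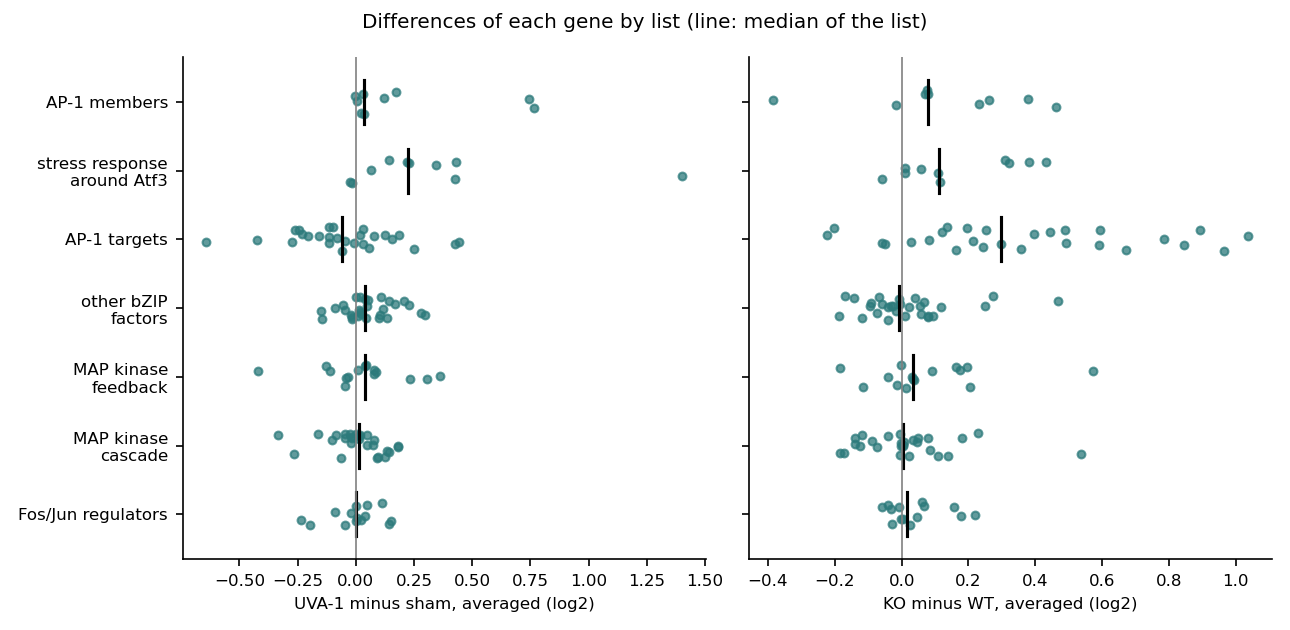
Averaged difference of each measured gene (points, log2) by list, UVA-1 minus sham on the left and KO minus WT on the right; black lines are list medians. The stress response genes around Atf3 have a median of 0.22 after UVA-1 and the AP-1 targets one of -0.06, whereas between genotypes the AP-1 targets have the median 0.30.

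The genes whose pattern was most like that of Atf3 were found by Pearson's r over the 8 arrays, after the mean of each replicate number was subtracted, among 11089 genes of at least median level. They were Hmgxb3 (r = 0.996), Atg4b (0.988), Csrnp1 (0.985), Klhl24 (0.982) and Sbds (0.977). Atg4b encodes a protease that processes LC3 proteins in autophagy, and Csrnp1 is itself an immediate early nuclear protein. Their UVA differences were smaller than those of Atf3: Csrnp1 had 0.08 and 0.25 in the WT cultures and 0.27 and 0.48 in the KO cultures, and Atg4b 0.05, 0.15, 0.12 and 0.24. The genes most like Fos were Eci2 (0.993), Nol4l (0.990), Synj1 (0.989), Tecpr1 (0.985) and Mblac2 (0.981), with UVA differences of -0.15 to 0.15. These correlations describe 8 arrays from 4 cultures and were picked as the highest of many.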

How the data were processed

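RNA of 8 samples was hybridised to Affymetrix arrays, 2 samples in each of 4 groups read from their titles. The authors' deposited intensity values are linear and rounded to whole numbers (7 to 22585). Per the submitters' processing notes they come from RMA (background correction, quantile normalization and probe summarisation) in Affymetrix Expression Console 1.3.1.187; the annotation build is not given in the sources used here. RMA gives the arrays near-equal distributions, so a shift of most genes 1 way would not be seen, and rounding coarsens dim values. The tests were run on log2 of the intensities, with no offset.

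The annotation table used names a single gene for 23521 of 41345 probe sets and several genes for 1814; the other 16010 carry no symbol there. The brightest single-symbol probe set was kept per gene, which gave 22180 genes, 21994 of them found by Entrez identifier in the RefSeq table. Promoter windows are from RefSeq, GRCm38.p6.

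limma 3.58.1 in R 4.3.3 fitted a mean per group over all 8 arrays (4 residual degrees of freedom), with eBayes and a trend; p-values were two-sided and adjusted over all genes by Benjamini-Hochberg at 0.05. The code of the fits was run on simulated data with UVA effects and a shift by number. No difference between cultures of the same number was simulated, so that run does not bear on the calls made here. Same-numbered arrays deviated from their group means together (r = 0.80 to 0.92 over 6 pairs of groups), so the numbers in the titles were taken to pair the arrays; with only 2 numbers, and no label saying what a number stands for, this is an assumption. The number was fitted as a block (3 degrees of freedom), and for UVA comparisons each culture (2), a block that earlier work on these data took up after seeing them. P-values rest on the spread between these arrays that each fit leaves. Without a block that is the spread within groups, and with number as the block what remains after a shift by number. With the culture block it is how far the UVA differences of a genotype's cultures disagree. Members, lists and the rule for named genes (all members; in each list those past the test without a block or with the number as a block, and the 2 largest averaged UVA and genotype differences) were chosen with earlier results of these data known.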

Additional observations from a re-analysis of the deposited data

Results flagged for a closer look

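Batf3 was the only one of the 9 measured members for which both WT cultures moved one way after UVA and both KO cultures the other. How many of all genes have such signs was not counted, so this is not read as a trait of Batf3. It differed by -0.10 and -0.17 (log2) in WT of number 1 and 2, and by 0.21 and 0.04 in KO. The UVA effect in KO minus that in WT was 0.26 log2 units, with a 95% confidence interval of -0.17 to 0.69 without a block and -0.11 to 0.63 with the culture block, and it did not pass over all genes (limma adjusted p = 1). Its intensities were 78 to 98, where a step of 1 unit is a visible part of the difference.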

How the results depend on the processing

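Without a block the count of genes past the threshold was 0 in all 7 comparisons. With the replicate block (arrays of the same number treated as paired) it was 1 for UVA in WT, 2 for UVA in KO, 3 for UVA averaged over genotypes and 7 for KO against WT averaged over treatments. With each culture as a block it was 12, 2 and 97 for the 3 UVA comparisons, with 2 AP-1 members called in the averaged one. The replicate block changed no other call. An offset of 16, leaving out dim genes, centring, quantile normalization, the mean of all probe sets and eBayes without a trend each left 0. Leaving out any array, or (chosen after the data were seen) any culture from the culture-block fit, also left 0. These fits have few residual degrees of freedom, so a count of 0 says little about stability. Atf3, Fosb and Jund kept a positive averaged UVA difference throughout (Atf3 0.57 to 0.91, Fosb 0.41 to 1.12, Jund 0.11 to 0.24 on omission). Directions near 0 turned. Quantile normalization gave Maff an averaged UVA difference of -6e-04, and the mean of both Jund probe sets an interaction of -0.0055. On omission of an array the numbers are unequal between groups, and averaged UVA differences ran from -0.24 to 0.47 (Fos), -0.18 to 0.23 (Fosl2), -0.34 to 0.41 (Jun), -0.20 to 0.27 (Junb), -0.0764 to 0.0658 (Batf3) and -0.22 to 0.22 (Maff). Averaged genotype differences ran from -0.29 to 0.42 (Fosb), -0.0043 to 0.47 (Junb) and -0.24 to 0.20 (Maff), interactions from -0.83 to 0.59 (Fosb) and -0.0922 to 0.18 (Jund), and the UVA difference of Fosb in KO from -0.0051 to 1.42.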
